A study of Mus musculus with 60 samples.

Results

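The motile cilia and ciliated cell genes were taken by symbol from the array's gene annotation: Foxj1, the axonemal dynein heavy chains (Dnah) and intermediate chains (Dnaic), the radial spoke genes (Rsph), the tektins (Tekt), the intraflagellar transport genes (Ift) and Spag6, Spag8, Spag16, Spag17 and Spag6l. The rule found 43 members among 18193 measured genes: Foxj1, 10 heavy chains, 2 intermediate chains, 6 Rsph, 5 Spag, 5 Tekt and 14 Ift genes, each read from the probe set with the highest mean. No measured value entered the rule beyond that choice of probe set, but the members were chosen with earlier results of these data known. Total lung RNA was hybridised to 60 Affymetrix mouse arrays, 1 per mouse. The SPIO groups were male Balb/c mice that inhaled an aerosol of superparamagnetic iron oxide (SPIO) nanoparticles for 4 h and were killed 0, 6, 24, 48, 96 or 168 h later, 5 mice per time. The CON groups were male Balb/c mice given a sham exposure to the filtered helium-oxygen atmosphere without particles for 4 h and killed at the same 6 times, also 5 per time. All mice had been accustomed to the restraint tubes. The 96 h mice of both arms had gone through plethysmography, and those of 168 h had lived in metabolism cages with liquid food. Each arm was exposed as 1 group, so exposure run and particle exposure cannot be told apart. No age is stated for the mice in the labels or methods.

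Motile cilia are the beating hairs of airway ciliated cells, which drive mucus and trapped particles up and out of the lung. Each cilium is built around an axoneme of outer doublet microtubules and a central pair, on which dynein arms make the force and radial spokes and the central pair set the beat. Foxj1 is the transcription factor that turns on the genes of the motile axoneme, and RFX factors bind a motif called the X-box in front of many cilium genes. The Ift genes differ from the others in reach: intraflagellar transport builds the primary, non-beating cilium of most cell types as well as the motile one.

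The tissue read as lung in all 60 arrays. On the log2 scale of the deposited values, the club cell secretoglobin Scgb1a1 lay between 14.97 and 15.11, the surfactant gene Sftpc between 14.85 and 15.01 and the alveolar type 1 marker Ager between 14.38 and 14.76. Tppp3, a gene abundant in ciliated cells, lay between 11.16 and 12.02, and the sperm protamine gene Prm1 between 5.67 and 6.32. The heart muscle gene Myh6 ran from 4.01 to 12.53. In such bulk tissue, fewer ciliated cells and less RNA per ciliated cell cannot be told apart. Array 1 of the CON 0 h group stood apart with a level of 14.02 for the liver gene Alb and 11.94 for the X-inactivation transcript Xist, against at most 11.35 and 6.02 in the other arrays. Array 3 of the SPIO 24 h group stood apart with a mean of 5.60 over Y-linked genes, against at least 6.78 in the other arrays. The Foxj1, axonemal and Ift levels of both arrays lay within the range of the other arrays, and counts without both are given below.

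The spread of log2 values within an array also moved with the groups. The interquartile range of an array averaged 3.98 ± 0.08 in SPIO and 3.85 ± 0.12 in CON at 24 h, and 4.03 ± 0.13 in SPIO and 3.90 ± 0.18 in CON at 48 h (SD, n = 5 each). At the other 4 times the CON averages ran from 4.04 to 4.13, and the 6 SPIO averages from 3.98 to 4.03. The CON arrays of 24 and 48 h were thus the narrowest groups, at the same times as most of the differences described here. The 3' minus 5' signal of the actin control probe sets, a measure of how complete the RNA was, averaged 0.79 ± 0.09 in SPIO and 0.68 ± 0.13 in CON at 24 h, and 0.83 ± 0.12 in SPIO and 0.64 ± 0.03 in CON at 48 h (SD, n = 5 each), and the SPIO average was the higher at all 6 times. The main results below are therefore set beside a fit with the interquartile range as a covariate, chosen after the values were seen. The part of array spread and RNA completeness in the differences was not tested further.

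Levels set the members apart before any comparison. Of the 43 members, 32 averaged a log2 value of 6 or more over the 60 arrays, all 14 Ift genes among them. The Ift genes had a median level of 8.44, between 7.58 for Ift88 and 9.87 for Ift43, and the 28 members other than the Ift genes and Foxj1 had a median of 6.42. Array levels of different genes rest on different probes and are no measure of relative transcript amounts. Foxj1 averaged 7.88, and the highest axonemal members were the spoke head gene Rsph1 at 8.80, the spoke head gene Rsph9 at 7.94 and the inner arm heavy chain Dnah6 at 7.88. Among the dim members were Spag6 at 2.74 and the sperm spoke gene Rsph6a at 3.73. The 17 axonemal members that averaged 6 or more are taken below as the axonemal set.

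Promoters of the members were searched for the X-box. A RefSeq promoter (build GRCm38.p6) was matched for 37 of the 43 members. In the 250 bases before the start, it was searched as GTTGCC, 0 to 3 bases and GGCAAC with at most 2 of the 12 letters different. That motif reads the same on both strands. It was present in 12 of the 37 members (32.4%), in 3 of 11 Ift genes (27.3%) and in 9 of 26 others (34.6%), against 1610 of 27025 genes of the table (5.96%). A match is a description of the letters and does not show a bound site. The 3 members whose match differed by a single letter are shown, with the match in capitals: Dnaic2, an outer arm intermediate chain (chr11:114727169-114727418, plus strand), Ift57, a transport subunit that passed the test at 2 times below (chr16:49699044-49699293, plus strand), and Tekt2, a tektin of the doublet wall (chr4:126325647-126325896, minus strand).
Dnaic2: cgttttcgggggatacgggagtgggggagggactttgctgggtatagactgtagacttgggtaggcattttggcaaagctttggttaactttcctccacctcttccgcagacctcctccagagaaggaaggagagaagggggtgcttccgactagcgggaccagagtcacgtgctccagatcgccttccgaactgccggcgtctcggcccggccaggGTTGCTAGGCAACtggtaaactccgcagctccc
Ift57: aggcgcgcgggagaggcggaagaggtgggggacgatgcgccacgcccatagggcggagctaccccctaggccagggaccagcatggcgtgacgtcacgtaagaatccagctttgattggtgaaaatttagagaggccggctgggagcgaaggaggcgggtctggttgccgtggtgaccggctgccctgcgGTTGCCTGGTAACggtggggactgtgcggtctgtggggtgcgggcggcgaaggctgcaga
Tekt2: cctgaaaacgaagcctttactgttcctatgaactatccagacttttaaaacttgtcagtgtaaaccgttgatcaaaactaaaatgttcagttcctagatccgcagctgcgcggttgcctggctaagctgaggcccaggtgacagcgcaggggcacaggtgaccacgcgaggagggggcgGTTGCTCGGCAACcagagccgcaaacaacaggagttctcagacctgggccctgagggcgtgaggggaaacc
In Dnaic2 the match ran from 33 to 21 bases before the start, in Ift57 from 60 to 48 and in Tekt2 from 71 to 59. The other 9 matches were in Dnah6, Dnah7a, Dnah9, Dnaic1, Ift140, Ift22, Spag16, Spag6l and Tekt4.

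Foxj1 did not pass the test at any time. It averaged 7.82 ± 0.18 in SPIO and 8.05 ± 0.48 in CON at 0 h, 7.72 ± 0.22 in SPIO and 7.95 ± 0.49 in CON at 24 h, and 8.11 ± 0.29 in SPIO and 7.80 ± 0.48 in CON at 48 h (SD, n = 5 each). The groups overlapped at each of the 6 times. The log2 fold change (SPIO minus CON) was -0.23, 0.24, -0.23, 0.31, 0.14 and 0.15 from 0 to 168 h with an SE of 0.22 each, and the smallest limma adjusted p was 0.39, at 48 h. Single mice differed more than the groups did: within the CON 24 h group Foxj1 ran from 7.21 to 8.43, and within the SPIO 24 h group from 7.43 to 7.93.

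**Figure D1:**
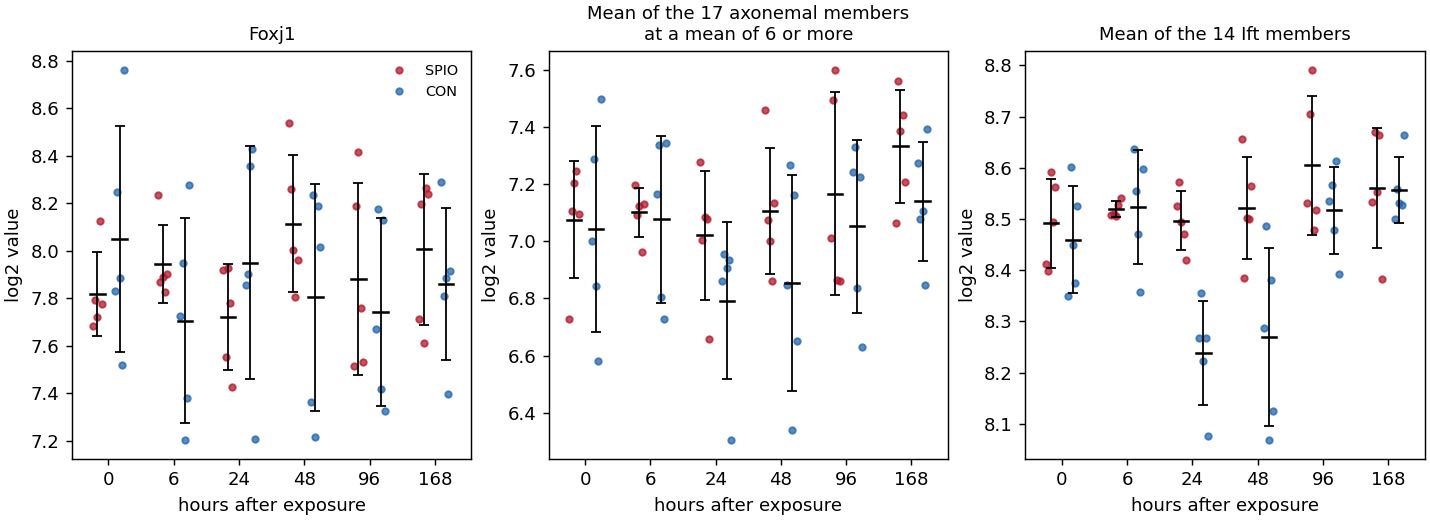
Log2 value of Foxj1, mean of the 17 axonemal members and mean of the 14 Ift members in each of the 60 arrays, by hours after exposure, with SPIO left of CON at each time; bars show the group mean and SD (n = 5). The Ift mean of CON averages 8.24 at 24 h and 8.27 at 48 h and 8.46 or more at the other times, while SPIO stays between 8.49 and 8.60; the Foxj1 groups overlap at each time.

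Members passed almost only at 24 and 48 h. At 24 h, 14 of 43 members passed (32.6%), 12 higher and 2 lower in SPIO, beside 23.9% of all genes tested, 20.3% higher and 3.66% lower (limma, Benjamini-Hochberg over 18193 genes, adjusted p under 0.05). At 48 h, 7 members passed (16.3%), all higher, beside 12.5% of all genes and 10.7% higher. A further 1 passed at 0 h (2.33%, higher in SPIO, beside 3.67% of all genes and 2.56% higher), and 0 passed at 6, 96 and 168 h, where 1.17%, 1.41% and 2.19% of all genes did. At an unadjusted p under 0.05 the members counted 2, 3, 19, 14, 7 and 5 from 0 to 168 h, beside 17.7%, 11.9%, 35.2%, 26.5%, 14.3% and 16.8% of all genes. At 24 and 48 h the share of members called was not far above that of all genes. The median log2 fold change over the 43 members was 0.02, 0.04, 0.23, 0.23, 0.10 and 0.08 from 0 to 168 h, against 0.03, 0.03, 0.09, 0.04, 0.06 and 0.01 over all genes.

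The counts were sensitive to single arrays and to the spread of the arrays. Without array 5 of the CON 24 h group 8 members passed at 24 h, and without array 2 of the SPIO 24 h group 9. At 48 h, 2 passed without array 3 or array 5 of CON, 3 without array 1 of CON or array 1 or 5 of SPIO, and 11 without array 2 of SPIO. No share of all genes is given here for the fits without 1 array. With the interquartile range as a covariate 9 members passed at 24 h and 2 at 48 h, where 18% and 8.28% of all genes did. With the actin 3' minus 5' signal as a covariate, 13 and 5 passed, with no share of all genes given here. Without both arrays that stood apart, 11 passed at 24 h and 7 at 48 h, where 20.8% and 12.9% of all genes did. The 3 lost at 24 h were Spag17, Tekt3 and Tekt4.

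**Figure D2:**
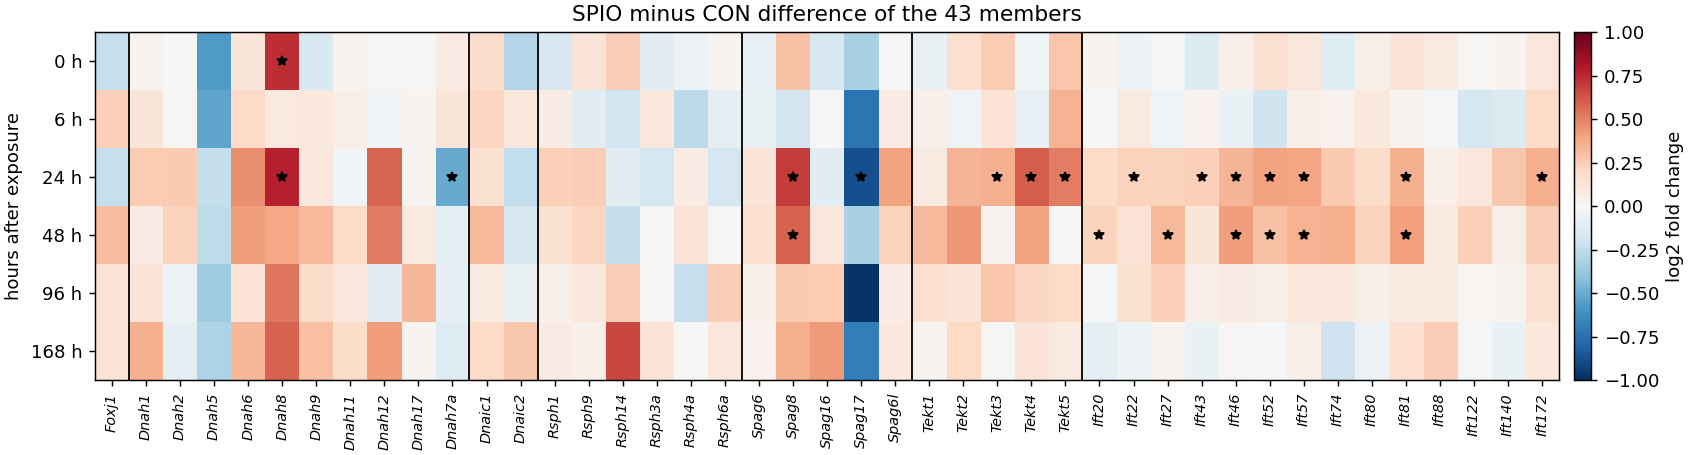
Log2 fold change (SPIO minus CON, colour scale from -1 to 1) of the 43 members in columns, grouped by role from Foxj1 on the left to the Ift genes on the right, at the 6 times in rows; a star marks an adjusted p under 0.05. The stars fall at 24 h (14 members) and 48 h (7 members) apart from Dnah8 at 0 h, and the 14 Ift columns are above 0 at both of these times.

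The intraflagellar transport genes made up 7 of the 14 calls at 24 h and 6 of the 7 at 48 h. Ift proteins form 2 complexes, IFT-B, which carries cargo towards the tip, and IFT-A, which is needed for the way back. At 24 h, 7 of 14 Ift genes were higher in SPIO (50%, beside 20.3% of all genes). At 48 h, 6 of 14 were higher (42.9%, beside 10.7% of all genes). At either time 0 were lower, and all 14 log2 fold changes were above 0 at both. All 14 averaged a log2 value of 6 or more, as did 11182 of the 18193 genes, so the shares of all genes include dimmer genes. No share among genes of like level is given here. By complex, 6 of 11 IFT-B genes passed at each of the 2 times, and 1 of 3 IFT-A genes (Ift43) passed at 24 h and 0 at 48 h. The rule takes genes by symbol and leaves out IFT-A genes of other names, so these counts do not cover the whole complex. Among those left out, Wdr19 was higher at 24 h (0.80) and 48 h (0.75), with limma adjusted p of 1.7e-06 and 1e-05. Wdr35 was also higher, at 0.42 and 0.61 (limma adjusted p = 0.011 and 0.00087). The changes were small: the median over the 14 was 0.25 at 24 h and 0.24 at 48 h, against 0.09 and 0.04 over all genes. With the interquartile range as a covariate, 5 Ift genes passed at 24 h and 2 at 48 h, where 18% and 8.28% of all genes did. The groups did not overlap for 3 Ift genes at 24 h and 1 at 48 h, where 9.96% and 6.61% of all genes were higher without overlap.

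Ift46, an IFT-B core subunit, had the smallest p of the Ift genes at both times. Its log2 values at 24 h were 9.28, 9.40, 9.34, 9.28 and 9.10 in SPIO, against 9.05, 9.0, 8.81, 8.91 and 8.95 in CON. At 48 h they were 9.44, 9.45, 9.23, 9.36 and 9.47 in SPIO, against 8.97, 9.02, 8.78, 9.14 and 8.95 in CON. Every SPIO mouse lay above every CON mouse at both times. The log2 fold change was 0.34 ± 0.06 (SE) at 24 h and 0.42 ± 0.06 at 48 h, with limma adjusted p of 0.00019 and 2.9e-05, and a two-sided exact permutation p of 0.0079 at each time, the smallest that 5 against 5 mice allow. With the interquartile range as a covariate the log2 fold change was 0.30 at 24 h and 0.38 at 48 h, with adjusted p of 0.00065 and 8.3e-05.

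Ift52, another IFT-B core subunit, had 7.87, 7.91, 8.05, 7.77 and 7.69 in SPIO at 24 h, against 7.65, 7.71, 7.26, 7.35 and 7.32 in CON. At 48 h it had 7.97, 7.89, 7.67, 7.91 and 7.95 in SPIO, against 7.53, 7.78, 7.47, 7.64 and 7.52 in CON. The lowest SPIO mouse fell below the highest CON mouse at both times. The log2 fold change was 0.40 ± 0.09 (SE, adjusted p = 0.00084) at 24 h and 0.29 ± 0.09 (adjusted p = 0.021) at 48 h by limma. The 24 h call held with the interquartile range as a covariate (limma adjusted p = 0.0035). The 48 h call was lost with the interquartile range as a covariate, where limma gave an adjusted p of 0.086, and without array 1 or 5 of SPIO or array 1, 3 or 5 of CON (up to 0.069).

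Ift57, an IFT-B subunit at the complex's edge, had 8.78, 8.76, 8.71, 8.71 and 8.57 in SPIO at 24 h, against 8.34, 8.40, 8.40, 8.30 and 8.13 in CON, with no overlap. At 48 h the SPIO mice had 8.99, 8.54, 8.69, 8.65 and 8.82 and the CON mice 8.39, 8.58, 8.11, 8.53 and 8.35, and the groups overlapped. The log2 fold change was 0.39 ± 0.09 (SE, adjusted p = 0.0012) at 24 h and 0.35 ± 0.09 (adjusted p = 0.0072) at 48 h by limma, and with the interquartile range as a covariate both calls held (adjusted p = 0.0053 at 24 h and 0.03 at 48 h). A second Ift57 probe set averaged 3.84, with a log2 fold change of -0.03 at 24 h.

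Ift81, which with Ift74 binds tubulin as cargo, had 8.82, 8.66, 8.61, 8.60 and 8.45 in SPIO at 24 h, against 8.37, 8.44, 8.12, 8.28 and 8.17 in CON. The groups did not overlap there, by a narrow margin. Its log2 fold change was 0.35 ± 0.12 (SE, adjusted p = 0.032) at 24 h and 0.41 ± 0.12 (adjusted p = 0.021) at 48 h by limma, and with the interquartile range as a covariate neither passed (adjusted p = 0.1 at 24 h and 0.076 at 48 h). Without any 1 of 5 arrays at 24 h (SPIO 1 or 2, CON 3, 4 or 5) or of 3 at 48 h (SPIO 5, CON 3 or 5) Ift81 did not pass either, with adjusted p of up to 0.093 and 0.1. The remaining Ift calls fell on 5 genes, each at 1 time. At 24 h they were Ift172, the largest IFT-B protein, at 0.36 (adjusted p = 0.011), Ift43, an IFT-A subunit, at 0.24 (0.01) and Ift22 at 0.23 (0.02). At 48 h they were Ift27, a small GTPase of IFT-B, at 0.32 (adjusted p = 0.039) and Ift20, which also works at the Golgi, at 0.23 (0.041). Of these, Ift22, Ift27 and Ift20 lost the call with the interquartile range as a covariate (adjusted p = 0.069, 0.15 and 0.17). Ift172 was not called without array 5 of CON (0.057), Ift22 without array 2 of SPIO or array 1 or 5 of CON (up to 0.088), and Ift27 and Ift20 each without any 1 of 7 arrays of 48 h (up to 0.13 and 0.14).

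The Ift difference went with lower sham values at 24 and 48 h. The mean over the 14 Ift genes was 8.50 ± 0.06 in SPIO and 8.24 ± 0.10 in CON at 24 h, and 8.52 ± 0.10 in SPIO and 8.27 ± 0.17 in CON at 48 h (SD, n = 5 each). Over all 6 times the SPIO means ran from 8.49 to 8.60, and the CON means at the other 4 times from 8.46 to 8.56. The CON mean was lowest at these 2 times for 13 of 14 Ift genes (92.9%) and for 28 of 43 members (65.1%), beside 27.0% of all genes, and the SPIO mean for 3 of 14 Ift genes (21.4%) beside 5.89% of all genes. Across the 6 times, 19 members varied in CON by a limma F test, 11 of the 14 Ift genes among them, where 41.0% of all genes varied in CON. In SPIO 2 members varied, Ift46 and Tekt5 (adjusted p = 0.028 each), where 7.13% of all genes did. With the interquartile range as a covariate, 6 members varied over the 6 times in CON and 3 in SPIO (Ift46, Tekt5 and Ift140), where 20.2% and 11.2% of all genes did. In that fit the median log2 fold change of the Ift genes was 0.17 at 24 h and 0.18 at 48 h, against 0.09 and 0.04 over all genes. Within groups, the Ift mean of an array correlated with its interquartile range at r = 0.61 over the 60 arrays, the axonemal mean at 0.30 and Foxj1 at 0.07, as a description of arrays that share processing.

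A test of whether the SPIO minus CON difference itself varied over the 6 times passed for 2 members, Ift46 (adjusted p = 0.0015) and Ift52 (adjusted p = 0.011), by limma's F test, where 8.77% of all genes passed. The difference of Ift46 was 0.05, -0.07, 0.34, 0.42, 0.08 and 0.01 from 0 to 168 h, and that of Ift52 0.16, -0.20, 0.40, 0.29, 0.06 and 0.01. With the interquartile range as a covariate Ift46 passed (adjusted p = 0.018) and Ift52 did not (0.059). For the other members, a call at one time and none at another is not shown to differ between times.

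**Figure D3:**
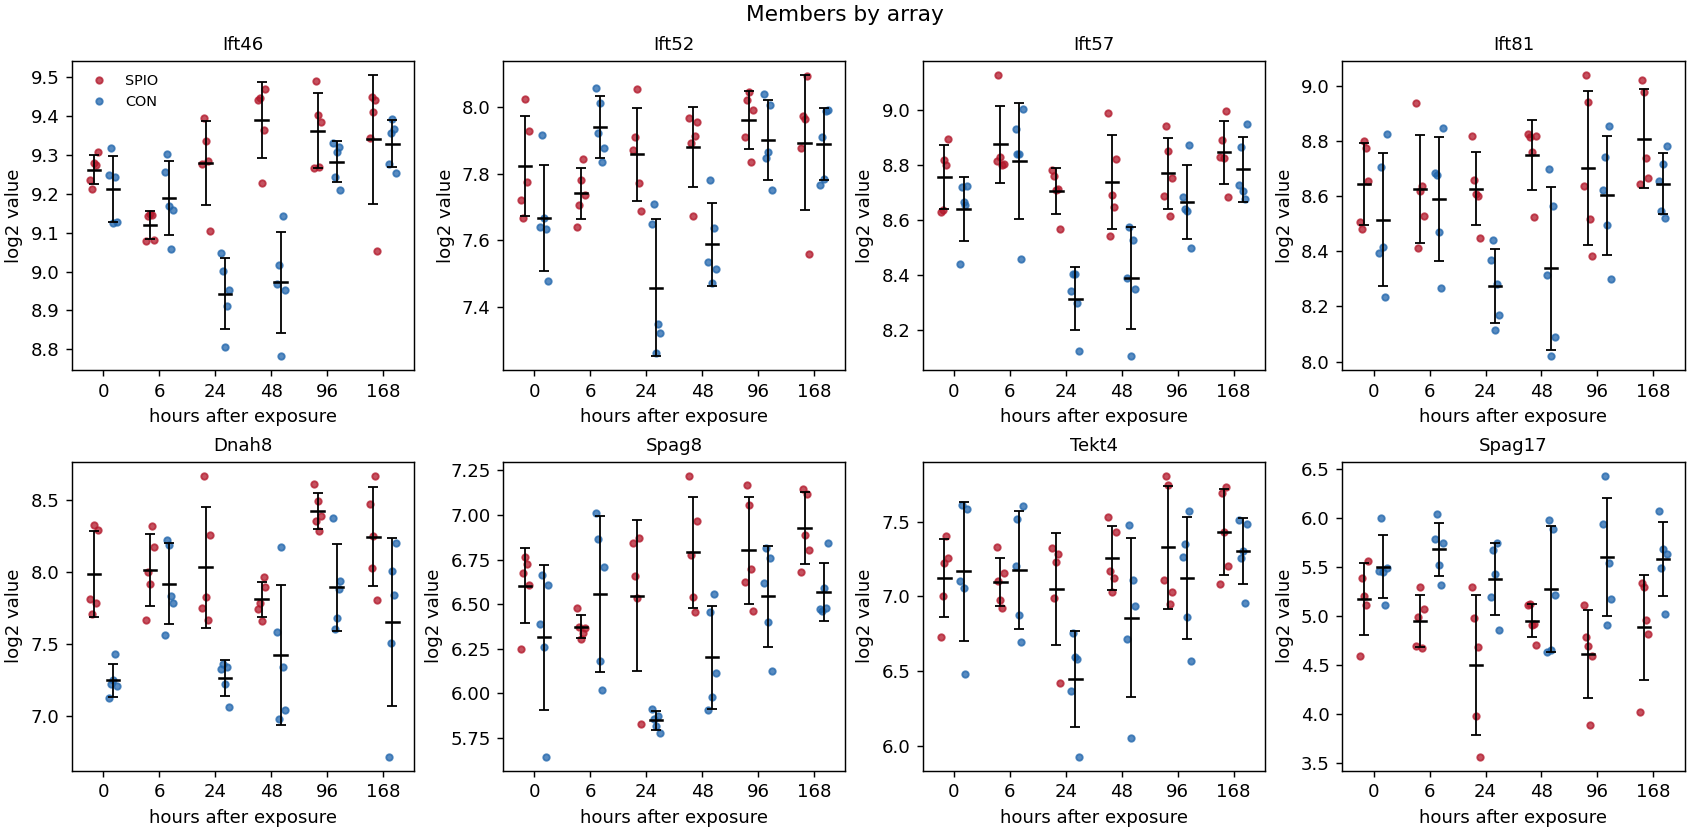
Log2 value of Ift46, Ift52, Ift57, Ift81, Dnah8, Spag8, Tekt4 and Spag17 in each array by hours after exposure, with SPIO left of CON at each time; bars show the group mean and SD (n = 5). Ift46 averages 8.94 in CON at 24 h and 8.97 at 48 h and lies between 9.12 and 9.39 in the other 10 groups; Spag17 averages lower in SPIO at all 6 times.

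Among the dynein genes, the outer arm chains that beat in airway cilia did not pass. Dnah9 and Dnah11, outer arm heavy chains of the airway, had log2 fold changes at 24 h of 0.10 and -0.03, and Dnah5, their partner in the outer arm, -0.23. Dnah5 was lower in SPIO at all 6 times, between -0.57 at 0 h and -0.23 at 24 h, with no adjusted p under 0.05. The intermediate chains Dnaic1 and Dnaic2 did not pass either: Dnaic1 came nearest at 48 h (0.32, limma adjusted p = 0.13), and Dnaic2 had its widest difference at 0 h (-0.30, adjusted p = 0.65). Dnah6, an inner arm chain and the brightest heavy chain, had 0.46 ± 0.25 (SE) at 24 h, with an adjusted p of 0.18. Dnah17, an outer arm chain of sperm, was dim, and at 96 h averaged 4.34 in SPIO and 4.01 in CON (adjusted p = 0.067 by limma).

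Dnah8, an outer arm heavy chain known from sperm tails, was the exception. At 0 h its log2 values were 7.81, 7.71, 8.33, 7.78 and 8.29 in SPIO, against 7.12, 7.22, 7.25, 7.43 and 7.21 in CON. At 24 h they were 7.75, 8.67, 7.82, 7.67 and 8.26 in SPIO, against 7.32, 7.36, 7.22, 7.34 and 7.06 in CON. The groups did not overlap at either time, as was so with a higher SPIO for 3.12% of all genes at 0 h and 9.96% at 24 h. The log2 fold change was 0.74 ± 0.20 (SE, adjusted p = 0.024) at 0 h and 0.77 ± 0.20 (adjusted p = 0.0034) at 24 h by limma, with an exact permutation p of 0.0079 at each, and it was above 0 at all 6 times. The 0 h call was lost without array 3 or 5 of SPIO or array 3 of CON (highest adjusted p = 0.085), and without both arrays that stood apart it was 0.71 (adjusted p = 0.042). With the interquartile range as a covariate both calls held (limma adjusted p = 0.013 at 0 h and 0.0099 at 24 h). A second Dnah8 probe set averaged 3.71 with a log2 fold change of 0.01 at 24 h, and within groups the first correlated with Foxj1 at r = -0.38 over the 60 arrays. Whether the first probe set detects Dnah8 alone was not checked, so its values are those of a probe set annotated to Dnah8. Dnah7a, an inner arm chain read at a dim 4.24, was lower in SPIO at 24 h, with 4.30, 4.22, 4.20, 4.06 and 3.89 in SPIO against 4.98, 4.17, 5.06, 4.60 and 4.38 in CON (log2 fold change -0.51 ± 0.16 SE, limma adjusted p = 0.017). Its groups overlapped, and the call was lost without array 1 or 3 of CON (up to 0.087). The call held with the interquartile range as a covariate (limma adjusted p = 0.029). A probe set shared by the near copies Dnah7b and Dnah7c averaged 6.00 and had a log2 fold change of 0.24 at 24 h.

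Of the 6 radial spoke genes, 0 passed at any of the 6 times, beside 23.9% of all genes at 24 h and 12.5% at 48 h. Rsph1, the brightest, had 0.23 ± 0.25 (SE) at 24 h, Rsph9 0.24 ± 0.16 and Rsph4a, a spoke head gene, 0.09 ± 0.25. Rsph14 lay between 5.35 and 5.58 in SPIO and between 4.37 and 5.16 in CON at 168 h with no overlap, beside 1.59% of all genes higher without overlap at that time. Its log2 fold change was 0.67 ± 0.24 (SE) with a limma adjusted p of 0.13. The dim Rsph6a came nearest at 96 h (0.25, limma adjusted p = 0.33). Rsph3a was read at 6.60, while a probe set shared by Rsph3a and Rsph3b averaged 9.81. That shared probe set had a log2 fold change of 0.20 at 24 h and 0.26 at 48 h. Adjusted over all probe sets, limma gave it a p of 0.19 and 0.1.

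The Spag members split in direction. Spag8, a microtubule-associated gene of sperm and ciliated cells, was higher in SPIO at 24 h, with 6.84, 6.66, 6.54, 6.87 and 5.83 in SPIO, against 5.91, 5.86, 5.82, 5.88 and 5.78 in CON. Of the SPIO mice, 1 lay among the CON mice. Its log2 fold change was 0.70 ± 0.18 (SE, adjusted p = 0.0032) at 24 h and 0.59 ± 0.18 (adjusted p = 0.021) at 48 h by limma. With the interquartile range as a covariate the 24 h call of Spag8 held (limma adjusted p = 0.011). At 48 h it was not called with the interquartile range as a covariate (0.063) or without array 1 or 5 of SPIO or array 1, 3 or 5 of CON (up to 0.089). Spag17, a central pair protein, was lower at 24 h, with 5.29, 4.98, 3.98, 4.68 and 3.57 in SPIO, against 5.20, 5.67, 5.42, 5.74 and 4.85 in CON. Of the SPIO mice, 2 lay within the CON range and 3 below it. The log2 fold change was -0.88 ± 0.28 (SE, limma adjusted p = 0.016), and without array 3 of SPIO, an array that stood apart, or array 5 of SPIO it was no longer called (highest adjusted p = 0.086). With the interquartile range as a covariate it was -1.08 (limma adjusted p = 0.0029).

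Spag17 was lower in SPIO at each of the 6 times, between -0.32 at 48 h and -0.98 at 96 h, where the adjusted p was 0.053 by limma. At 6 h its SPIO mice lay between 4.67 and 5.30 and its CON mice between 5.32 and 6.03, with no overlap, beside 1.23% of all genes lower without overlap. A second Spag17 probe set averaged 3.24, with a log2 fold change of 0.05 at 24 h. The brighter central apparatus genes Spag6l and Spag16 did not pass, with 0.40 ± 0.20 (SE) and -0.11 ± 0.24 at 24 h.

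Of the 5 tektins, filament proteins of the doublet wall, 3 were higher in SPIO at 24 h (60%, beside 20.3% of all genes) and 0 lower. At the other times 0 passed. Single arrays decided these calls: without array 2 of SPIO or array 5 of CON none of the 3 passed, and the adjusted p without 1 array reached 0.14 for Tekt4, 0.098 for Tekt5 and 0.21 for Tekt3. Tekt4 had 7.32, 6.99, 7.23, 7.28 and 6.42 in SPIO, against 6.36, 6.76, 6.60, 6.58 and 5.93 in CON, and 1 SPIO mouse lay below several CON mice. Its log2 fold change was 0.61 ± 0.22 (SE, limma adjusted p = 0.035). The dim Tekt5 and Tekt3 had 0.51 (limma adjusted p = 0.019) and 0.36 (0.034). The 3 lost the call with the interquartile range as a covariate (adjusted p = 0.11, 0.061 and 0.11) and in a limma fit of the 10 arrays of that time alone (0.052, 0.051 and 0.11). Tekt2 came nearest at 48 h with 0.43 ± 0.15 (SE, limma adjusted p = 0.051), and Tekt1, the brightest, had 0.09 at 24 h.

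Mice of 1 group differed in their axonemal genes together. The median SD within a group was 0.32 over the 28 members other than Ift genes and Foxj1, 0.36 for Foxj1 and 0.16 over the Ift genes, against 0.18 over all genes. With each group's mean removed, Foxj1 correlated over the 60 arrays with the 17 axonemal members at a median r of 0.73, from -0.38 (Dnah8) to 0.85 (Rsph1). With the 14 Ift genes its median r was 0.38. The mouse with the highest Foxj1 also had the highest axonemal mean in 8 of 12 groups, and the mouse with the lowest Foxj1 the lowest in 9. Pairs of axonemal members had a median r of 0.69 and pairs of Ift genes 0.45. These arrays share the tissue sampled and the protocol, so the correlations are a description.

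**Figure D4:**
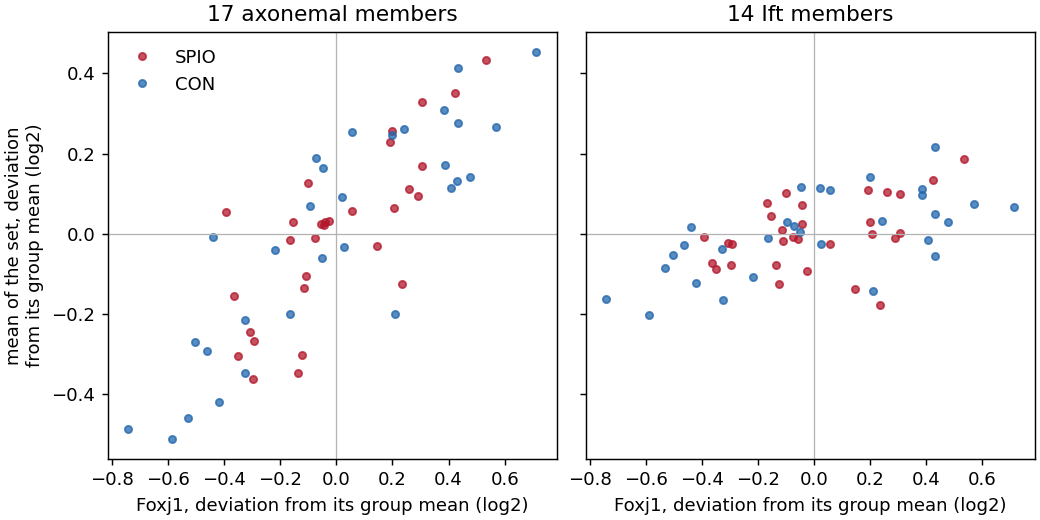
Each array's deviation from its group mean for Foxj1 (horizontal, log2) against that of the mean of the 17 axonemal members (left) and of the 14 Ift members (right), 60 arrays, SPIO and CON by colour. Foxj1 deviates from -0.74 to 0.71 and the axonemal mean from -0.51 to 0.45 with it, while the Ift mean stays between -0.20 and 0.22.

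Ranked by that correlation over all 18192 other genes, the 10 genes most like Foxj1 were 1700088E04Rik (r = 0.89), Spaca9, Agr3, Cfap52, 1110017D15Rik, Elmod1, Prom1, Cdhr4, Fam183b and Enkur (0.85). None of the 10 passed between SPIO and CON at any time by limma. Of the 42 other members, 5 were among the first 100: Rsph1, Spag6l, Tekt4, Dnah6 and Spag16. The median rank was 196 for the 17 axonemal members and 1306 for the Ift genes, and Dnah8 ranked 17824. Ift46 and Ift52, the members whose difference varied over time, had r of 0.13 and 0.05 with Foxj1.

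Further cilium genes outside the rule were counted in 4 lists. Among 35 primary cilium, transport and centrosome genes, 12 were higher in SPIO at 24 h (34.3%, beside 20.3% of all genes). At 48 h, 10 were higher (28.6%, beside 10.7% of all genes), with 0 lower at both times. The median log2 fold change of the list was 0.20 and 0.19, against 0.09 and 0.04 over all genes. The higher genes included the IFT-A gene Wdr19 (0.80 ± 0.11 SE at 24 h, adjusted p = 1.7e-06), the BBSome gene Bbs9 (0.84 ± 0.13 at 48 h, 1.9e-05), the basal body gene Cep164 (0.60 at 48 h, 4e-05) and the centriole cartwheel gene Sass6 (0.58 at 48 h, 5.5e-05), all by limma. The widest difference of the list was that of Kif3b, named after its values were seen. It was lower in SPIO at 96 h (-0.89, limma adjusted p = 0.011) and at 168 h (-0.92, 0.0071). Among 65 other ciliated cell genes, 2 were higher and 1 lower at 24 h (4.62%) and 2 higher at 48 h (3.08%), with medians of 0.15 at both times. Those with the smallest unadjusted p were the tubulin gene Tuba1a (0.34 at 168 h, limma adjusted p = 0.017), Stk33 (0.82 at 48 h, 0.0064), Rsrp1 (-0.55 at 24 h, 0.0071) and Fank1 (0.36 at 168 h, 0.043). The shares of these 65 genes lay below those of all genes at both times.

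Among 21 dynein assembly and docking genes, 1 was higher and 1 lower at 24 h (9.52%, beside 23.9% of all genes in either direction). At 48 h, 1 was lower (4.76%, beside 12.5% of all genes in either direction). The assembly factor Dnaaf5 was higher at 24 h (0.39, limma adjusted p = 0.0058), and Dynll1, a light chain shared with cytoplasmic dynein, was lower at 48 h (-0.40, 0.0075). Dnaaf2 and Ccdc103 did not pass at 96 h (-0.34 and 0.39, limma adjusted p = 0.09 and 0.22). Among 11 regulators of ciliated cell fate, 2 were higher at 24 h (18.2%, beside 20.3% of all genes). At 48 h, 4 were higher (36.4%, beside 10.7% of all genes). Myb, which acts in ciliated cell differentiation and in blood progenitors, had 0.85 ± 0.18 (SE, limma adjusted p = 0.00067) and the X-box factor Rfx2 0.46 ± 0.11 (0.0024) at 24 h, and the centriole amplification gene Ccno had 0.43 (0.023) and Ankrd54 0.22 (0.037) at 48 h.

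Markers of other lung cells were counted in the same way. At 24 h, 6 of 17 leukocyte markers were higher in SPIO (35.3%, beside 20.3% of all genes), with a median log2 fold change of 0.41, and their mean level ranged from 8.31 to 8.72 in SPIO and from 7.76 to 8.38 in CON. At 48 h, 2 of 17 were higher (11.8%, beside 10.7% of all genes), and the mean level ranged from 8.30 to 8.66 in SPIO and from 8.12 to 8.46 in CON. At 0 h, 4 of 17 were higher (23.5%, beside 2.56% of all genes): the B cell genes Ms4a1 and Cd79a (1.85 and 1.02, limma adjusted p = 0.0049 and 0.0043), the T cell gene Cd4 (0.41, 0.034) and the monocyte receptor gene Ccr2 (1.34, 0.035). Ccr2 was also higher at 24 h (1.41, limma adjusted p = 0.0056). Of 16 endothelial and mesenchymal markers, 3 were higher at 24 h (18.8%, beside 20.3% of all genes) and 0 at 48 h. The 3 included Pecam1 (0.35, limma adjusted p = 0.013) and Col1a1 (0.60, 0.023). Pdgfra and Kdr did not pass at 0 h (0.27 and 0.41, 0.062 and 0.087). Of 17 airway secretory markers, which mark the neighbours of ciliated cells, 1 was higher at 24 h (5.88%, beside 20.3% of all genes). It was Hp (0.23, limma adjusted p = 0.037), and 0 were higher at the other 5 times. Hp at 6 h (0.27, limma adjusted p = 0.095), Trp63 at 24 h (-0.24, 0.074), Cldn10 at 48 h (0.29, 0.16) and Krt5 at 96 h (0.28, 0.37) did not pass. Of 16 alveolar markers, 3 were higher and 2 lower at 24 h (31.2%, beside 23.9% of all genes). At 48 h, 1 was higher (6.25%, beside 10.7% of all genes), Hopx (0.20, limma adjusted p = 0.012). Cldn18, a tight junction gene, was lower at 168 h (-1.09, 0.0009), Slc34a2 higher at 0 h (0.26, 0.0059), and Rtkn2 did not pass at 6 h (0.33, 0.089). Of 14 muscle and 10 liver and testis markers, 0 passed at any time by limma; at an unadjusted p under 0.05 there were 2 muscle markers at 0 h and 2 liver and testis markers at both 48 and 96 h. The widest differences were those of Nppa, named after its values were seen, at 6 h (-1.89, limma adjusted p = 0.68) and Alb at 48 h (-2.16, 0.18), and Acta1 had -1.47 at 0 h (0.21). The part of these cell types in the members' differences was not tested.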

How the data were processed

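RNA from the right diaphragmatic lung lobe of 60 mice had been hybridised to Affymetrix mouse arrays. The values the authors deposited are on the log2 scale and come from RMA (no version in the sources used). Of 45101 probe sets, 64 controls were left out. Each of 18193 genes was read from its probe set with the highest mean among the 34945 with a single symbol; 932 carried several symbols and 9160 none. RMA pulls low signals together, which can shrink differences of dim genes. SPIO was compared with CON of the same time in R 4.3.3 with limma 3.58.1, in 1 model over 12 groups, which left 48 residual degrees of freedom. P-values were adjusted over all genes (Benjamini-Hochberg) and called under 0.05. F tests of the same fit asked whether differences or levels varied over times, and exact permutation tests were two-sided. The labels give separate mice; the number of mice limits precision. The fit was tested on simulated data. Sequences came from RefSeq promoters. Figures used Python 3.11.15 and matplotlib 3.10.9.

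The members and lists were chosen with earlier results of these data known. The text names Foxj1, members that passed, the 3 brightest and the 2 with the smallest p of each role group, the 4 genes of each further list with the smallest p, and the 10 genes most like Foxj1. Dnah5, Dnah11, Wdr35 and the probe sets shared by Dnah7b and Dnah7c and by Rsph3a and Rsph3b were chosen after the values were seen. So were the covariates (array interquartile range, actin 3' minus 5' signal) and the repeated quantile normalization. Alternatives were averaged probe sets per gene, a filter on dim genes (at least 6 in at least 5 arrays), median centring, trend and robust moderation, the replicate number as a block, each time fitted alone, the study's own test (unequal-variance analysis over groups, then Tukey), a 1.5-fold minimum, and single arrays left out.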

Additional observations from a re-analysis of the deposited data

Results flagged for a closer look

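For members with a call and Foxj1, 56 combinations of a gene and a group of 5 mice were checked. In 6 of them, 1 mouse lay far from the others for the size of its group's range, where chance gives about 1 in 20. The same mice entered several of these checks, so the checks are not independent. In SPIO at 24 h, Ift172 was 8.56 in array 5, with the nearest mouse at 8.72. In SPIO at 48 h, Ift20 was 8.93 in array 2 (nearest 9.28), Ift52 was 7.67 in array 3 (nearest 7.89) and Ift81 was 8.52 in array 4 (nearest 8.76). Foxj1 was 8.12 in array 4 of SPIO at 0 h (nearest 7.79) and 8.23 in array 1 of SPIO at 6 h (nearest 7.90). All 6 cases were in SPIO groups, and in the 4 Ift cases the far mouse was the lowest of its group.

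The SPIO minus CON difference varied over the 6 times for Ift46 (adjusted p = 0.0015) and Ift52 (adjusted p = 0.011) by limma's F test. Probe sets that were not used for their gene also passed, with adjustment over 45037 probe sets: a second Ift27 probe set at 48 h (log2 fold change 0.48, limma adjusted p = 0.032) and a second Ift81 probe set at 24 h (0.42, limma adjusted p = 0.0088).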

How the results depend on the processing

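Of the 22 calls of a member at a time, 0 reversed in direction under any setting, and 8 held without each of the 60 arrays in turn. Leaving out single arrays gave 0 to 1 members called at 0 h, 0 at 6 h, 8 to 17 at 24 h, 2 to 11 at 48 h, and 0 to 1 at both 96 and 168 h. It gave 2 to 4 members whose difference varied over time (4 without array 4 of SPIO at 168 h or array 4 of CON at 6 h), 0 to 2 that varied in SPIO (0 without array 2, 3 or 5 of SPIO at 6 h) and 14 to 21 that varied in CON. No share of all genes is given here for the fits without a single array. Each time fitted alone gave 7 members at 24 h and 1 at 48 h, where 13.3% and 5.61% of all genes passed. The study's own test gave 6 and 2 and the 1.5-fold minimum 4 and 1, with no share of all genes given here. Fewer arrays or a second criterion enter these settings by construction. With the interquartile range as a covariate the counts were 9 at 24 h and 2 at 48 h, where 18% and 8.28% of all genes passed. In that fit 1 member varied in its difference and 6 varied in CON, where 1.98% and 20.2% of all genes did. Quantile normalization repeated gave 3 at 48 h and 1 at both 96 and 168 h, with no share of all genes given here. At 96 h, where 0 passed, the mean of probe sets gave 2 (Dnah17 and Spag17) and median centring 1 (Dnah17). No share of all genes is given here for either setting. Dnah17 has 1 probe set, so the mean of probe sets left its values and its log2 fold change of 0.33 unchanged. Its limma adjusted p moved from 0.067 to 0.032 there only through the values of other genes. The cause of the other changes was not tested.

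The same replicate number does not mark a shared mouse, and same-numbered mice of a time deviated together at a median r of -0.04 (7 of 30 pairs over 0.1; 4 of 30 SPIO mice correlated best with their own number). No share of all genes is given here for the fit with the replicate number as a block. In it, 14 members passed at 24 h, 8 at 48 h and 1 (Spag17) at 96 h. The cause of these changes was not tested. Across the 11 alternatives other than the fold minimum, Ift46 at 24 and 48 h, Ift52, Ift57 and Spag8 at 24 h and Dnah8 at 0 and 24 h kept the call in all 11. Dim probe sets limit Dnah7a, Spag17 and Tekt3, which the filter of 6 removed.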

Other observations

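The 6 genes whose deviations within groups were most like those of Dnah8 over the 60 arrays, chosen after its values were seen, were Dgkz (r = 0.73), Aplnr, Cd22, Nup210, Ptpre and Snn (0.67), none of them a member. Cd22 is a B cell gene and Aplnr an endothelial receptor. For Spag17 they were Map1b (r = 0.78), Fam216b, Slc23a1, Dnah5, Aig1 and Dzip1 (0.74), with 1 member, Dnah5, among them, and Spag17 and Dnah5 were the 2 members lower in SPIO at all 6 times. For Ift46 the first was Ift52 (r = 0.73), followed by Edem2, Urod, Txnrd2, Pmpcb and Trpm4 (0.69). In all, 9 members were higher in SPIO at all 6 times: Dnah1, Dnah17, Dnah6, Dnah8, Dnaic1, Ift172, Ift57, Ift81 and Tekt3.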
